A study of Mus musculus with 12 samples.

Results

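The enzymes that write and erase methyl groups on lysine 9 and lysine 27 of histone H3 were followed in mouse induced pluripotent stem (iPS) cell clones labelled Aid+/+ and Aid-/-. The 10 genes were Suv39h1, Suv39h2, Ehmt1, Ehmt2 and Setdb1, which methylate H3K9, Kdm6a (Utx) and Kdm6b (Jmjd3), which demethylate H3K27, and Ezh2, Eed and Suz12, the core of Polycomb repressive complex 2 (PRC2), which methylates H3K27. A probe was taken when its transcript accession belonged to one of these genes, which gave 12 probes for the 10 genes among the 20660 genes matched on the array. Suv39h2 and Ehmt1 had 2 probes each and the other genes had 1, and all 12 probes were well above background on all 12 arrays.

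Each array held 1 clone, with 6 clones per genotype in 4 clone series of 3. Aid+/+ was represented by series 967B (967B2, 967B4, 967B6) and series 979B (979B1, 979B3, 979B4). Aid-/- was represented by series 979F (979F1, 979F2, 979F3) and by 981E1, 981E4 and 981E5, together called series E. All 12 clones carried a Nanog-GFP reporter, were labelled male with a mixed C57BL6, DBA and 129S4 background, and came from embryonic fibroblasts reprogrammed with retroviral factors, with RNA taken at passage 6 on gelatin. Slide 1 carried series 967B, slide 2 carried 979F, and slide 3 carried both 979B and E, so genotype, series and slide can be told apart only in part. By their number, 979B and 979F come from the same reprogramming experiment, which held both genotypes. The study's clone records describe some clones of series E as sharing a retroviral integration pattern, in words that do not settle whether 981E1 and 981E4 are separate clones, so p-values involving series E may treat related cells as independent.

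Levels are log2 of the normalized signal, which is the probe's intensity over the 75th percentile of its array, so that 0 is that percentile. Levels of different probes were not set against each other. Each array had 31700 to 33674 of 55681 probes well above background and a 75th percentile intensity of 418 to 509. Every array detected all 10 probes of the pluripotent cell markers (Pou5f1, Nanog, Sox2, Zfp42, Esrrb, Dppa5a, Tdgf1 and Fgf4). Their summed signal was 782 to 1104 times the 75th percentile in Aid+/+ clones and 719 to 1008 times in Aid-/- clones. Of the fibroblast marker probes, 4 of 8 were detected on every array and that of Lum on none. Their summed signal was 1.96 to 13.0 in 967B, 10.8 to 15.7 in 979B, 21.4 to 30.7 in 979F and 12.2 to 24.6 in series E. Of 12 probes of early differentiation markers, 5 were detected on every array, with a summed signal of 0.939 to 1.67.

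The genotype names are those of the labels. The library labelled 979F3, listed as male, stood apart from the others: of 9 Y-linked probes well above background in the other 11 clones, 0 were in 979F3. Eif2s3y, for example, was -7.40 there and 3.56 to 5.61 in the other clones. Calls among the enzymes are therefore also given without it.

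Trimethylation of H3K9 by Suv39h1 and Suv39h2 marks the heterochromatin around centromeres, while Ehmt2 (G9a) and Ehmt1 (GLP) work as a pair in euchromatin and Setdb1 silences endogenous retroviruses with its partner Trim28. In PRC2, Ezh2 is the catalytic subunit, Suz12 the scaffold and Eed the reader of H3K27 trimethylation. H3K9 methylation is known as a barrier to reprogramming of somatic cells, and Kdm6a is known to be needed for reprogramming. The study discusses Suv39h1 and Kdm6a among histone modifiers with a part in iPS cell generation, and the comparison asks whether the clones of the 2 labelled genotypes differ in the transcripts of these enzymes.

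The promoters of 4 genes are shown because they belong to the genes on which the results turn, Suz12 and Ehmt2, with the highest shares of variance between clone series, and Kdm6a with Uty, its paralog on the Y chromosome. Each window spans 250 bases before to 50 bases after the start of the gene in RefSeq (GRCm38.p6), read on the strand of the gene. Capitals mark the E-box CACGTG, the E2F motifs TTTGGCGC and TTTCCCGC and the CCAAT box CCAAT on either strand. None of these motifs contains another.
Suz12, chr11:79992856-79993155, plus strand: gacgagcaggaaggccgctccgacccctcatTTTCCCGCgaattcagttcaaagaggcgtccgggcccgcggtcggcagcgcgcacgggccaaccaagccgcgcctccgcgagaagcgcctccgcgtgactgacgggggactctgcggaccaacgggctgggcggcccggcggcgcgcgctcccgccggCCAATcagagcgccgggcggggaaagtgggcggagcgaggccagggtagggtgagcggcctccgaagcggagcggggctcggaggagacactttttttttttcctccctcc
Ehmt2, chr17:34898224-34898523, plus strand: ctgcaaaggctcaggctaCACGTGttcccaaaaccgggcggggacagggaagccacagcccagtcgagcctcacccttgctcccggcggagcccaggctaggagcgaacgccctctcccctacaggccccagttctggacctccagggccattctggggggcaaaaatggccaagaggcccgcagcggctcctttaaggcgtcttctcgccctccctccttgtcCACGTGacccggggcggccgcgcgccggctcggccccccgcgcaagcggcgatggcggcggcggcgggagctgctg
Kdm6a, chrX:18162325-18162624, plus strand: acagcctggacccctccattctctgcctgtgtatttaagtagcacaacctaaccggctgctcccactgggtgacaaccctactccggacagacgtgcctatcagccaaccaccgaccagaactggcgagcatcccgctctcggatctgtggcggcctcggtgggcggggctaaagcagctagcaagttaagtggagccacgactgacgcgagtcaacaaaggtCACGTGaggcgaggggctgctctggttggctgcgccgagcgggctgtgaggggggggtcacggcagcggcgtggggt
Uty, chrY:1245710-1246009, minus strand: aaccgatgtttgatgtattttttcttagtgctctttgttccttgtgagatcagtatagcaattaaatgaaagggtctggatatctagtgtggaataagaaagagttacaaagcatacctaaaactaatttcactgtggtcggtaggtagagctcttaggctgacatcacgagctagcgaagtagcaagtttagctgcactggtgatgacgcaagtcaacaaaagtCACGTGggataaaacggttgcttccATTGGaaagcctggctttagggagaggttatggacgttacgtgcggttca

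The promoters of these enzymes were rich in CG dinucleotides. The table held 11 windows for 9 of the 10 genes, with Kdm6b missing. They had 15 to 41 CG dinucleotides, with a median of 31, against a median of 7 over all 32851 promoters. The window of Suz12 had 41 and that of Kdm6a 21. The E-box, a motif bound by Myc and related factors, was in 3 of the 11 windows, both of Ehmt2 and the one of Kdm6a, and in 7.15% of all promoters. An E2F motif was in 2 windows, those of Suz12 and Ezh2, and in 1.56% of all promoters, and a CCAAT box was in 5 windows and in 37.4% of all. In Kdm6a the E-box began 27 bases before the start and in Uty 25 bases before, and in both it lay just after the longest run of bases that the pair of windows shared, 10 bases (agtcaacaaa). The E-box and the E2F motifs contain CG themselves, and the shares over all promoters were not taken from promoters of like CG content. These matches describe the sequence and are not evidence of binding.

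None of the 10 enzymes passed the test between genotypes in the fit without a block, and Suz12 passed with slide as a fixed block (0.50, adjusted p = 0.0382). In limma with 6 clones against 6, 0 of 12 probes passed an adjusted p under 0.05, beside 0.0611% of all 55681 probes, and 2 had an unadjusted p under 0.05 (Suv39h2 and Eed), as did 13.6% of all probes. The log2 fold changes of Aid-/- over Aid+/+ lay between -0.23 and 0.22, with adjusted p-values from 0.351 to 0.996. The 95% interval of every one of the 12 probes lay within a 1.5-fold change in either direction, with the outermost bounds at -0.46 and 0.52 on the log2 scale. These intervals treat the 6 clones of a genotype as independent, though they fall into series, so they may be too narrow. For Suz12 in series E against 979B the interval was 0.25 to 0.75, which reaches beyond 1.5-fold. The median log2 fold change was -0.08 over the 12 probes and -0.01 over all probes, and the median size was 0.10 and 0.17. The methods' t-test on the same values, with Benjamini-Hochberg adjustment, also gave 0. In RNA of whole cultures, fewer cells of a type and less RNA per cell cannot be told apart.

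**Figure D1:**
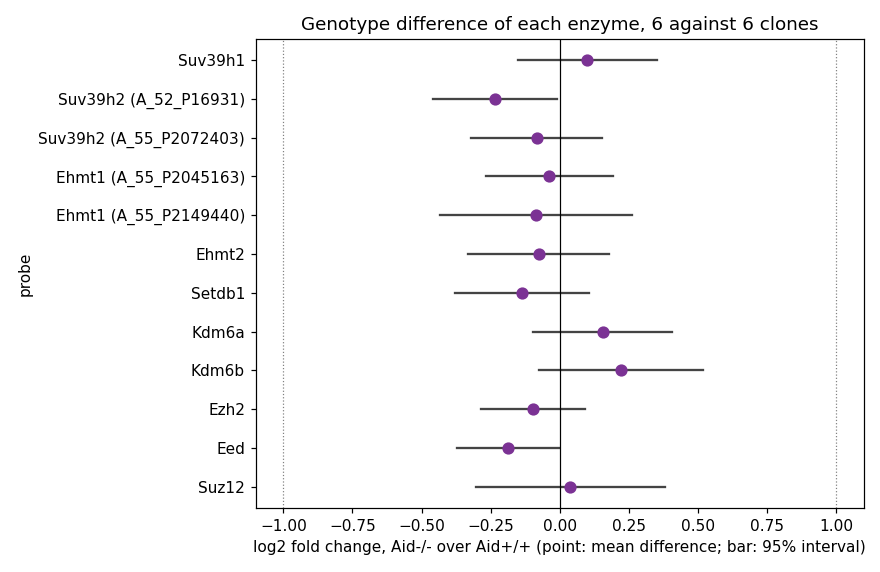
Log2 fold change of Aid-/- over Aid+/+ clones for each probe (points) with its 95% interval (bars), from limma with 6 clones per genotype. Dotted lines stand at a 2-fold change in either direction. All 12 intervals lie within a 1.5-fold change, and they treat the clones of a genotype as independent.

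Suv39h1, the H3K9 methyltransferase that the study names, differed between the genotypes by less than the spread of the clones. It read 0.89, 0.86 and 0.80 in 967B2, 967B4 and 967B6, and 0.48, 0.59 and 0.62 in 979B1, 979B3 and 979B4. In the Aid-/- clones it read 0.74, 0.92 and 1.05 in 979F1, 979F2 and 979F3 and 0.97, 0.59 and 0.56 in 981E1, 981E4 and 981E5. The groups overlapped, and the lowest values were those of the 3 Aid+/+ clones of 979B together with 981E4 and 981E5. The log2 fold change was 0.10 (SE 0.12, 95% interval -0.15 to 0.35, adjusted p = 0.772). Between 979F and 979B the difference was 0.34 (SE 0.14, adjusted p = 0.294), and for series E against 967B it was -0.14 (adjusted p = 0.790). The first difference minus the second was 0.47 (SE 0.19, adjusted p = 0.455).

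None of the other H3K9 methyltransferases passed the test between genotypes. Suv39h2 had the most negative genotype value, at probe A_52_P16931. That probe ranged from -0.24 to 0.18 with a median of -0.04 in Aid+/+ clones and from -0.40 to -0.11 with a median of -0.27 in Aid-/- clones. Its log2 fold change was -0.23 (SE 0.10, adjusted p = 0.351), and the groups overlapped. The other Suv39h2 probe, A_55_P2072403, gave -0.08 (adjusted p = 0.806), and the correlation between the 2 probes of this gene over the 12 clones was only 0.20. For Ehmt1 the probes gave -0.04 and -0.09, for Ehmt2 -0.08 and for Setdb1 -0.14, with adjusted p-values of 0.962, 0.893, 0.851 and 0.662. Under quantile normalization Ehmt2, the Ehmt1 probe A_55_P2045163 and the Suv39h2 probe A_55_P2072403 took the opposite sign (0.06, 0.04 and 0.03), so these genotype values have no firm direction.

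Kdm6a, the X-linked H3K27 demethylase, also overlapped between genotypes. In the Aid+/+ clones it read 0.65, 0.01 and 0.50 in 967B2, 967B4 and 967B6 and 0.13, 0.25 and 0.44 in 979B1, 979B3 and 979B4. In the Aid-/- clones it read 0.45, 0.50 and 0.42 in 979F1, 979F2 and 979F3 and 0.66, 0.36 and 0.52 in 981E1, 981E4 and 981E5. The 4 lowest readings of the 12 held 3 Aid+/+ clones, with 967B4 the lowest. The log2 fold change was 0.16 (SE 0.12, 95% interval -0.10 to 0.41, adjusted p = 0.615), and without 979F3 and 967B6 no enzyme passed either. Kdm6b, the other H3K27 demethylase, ranged from 0.96 to 1.25 in Aid+/+ clones (median 1.14). In Aid-/- clones it ranged from 0.73 in 981E5 to 1.60 in 979F3. Of those 6 clones, 5 were above every Aid+/+ clone. Its log2 fold change was 0.22 (SE 0.14, adjusted p = 0.522), the highest of the 12.

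Uty, the Y-linked paralog of Kdm6a, was measured by 2 probes and had a wide range. Probe A_52_P345539 was between -3.14 and -0.85 in 11 clones and -6.53, not well above background, in 979F3. Probe A_55_P2134967 was between -2.56 and -0.39 in those clones and -7.26 in 979F3. The highest values of both were in 967B6. Kdm6a in 979F3 (0.42) and 967B6 (0.50) was within the range of the other clones, 0.01 to 0.66.

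**Figure D2:**
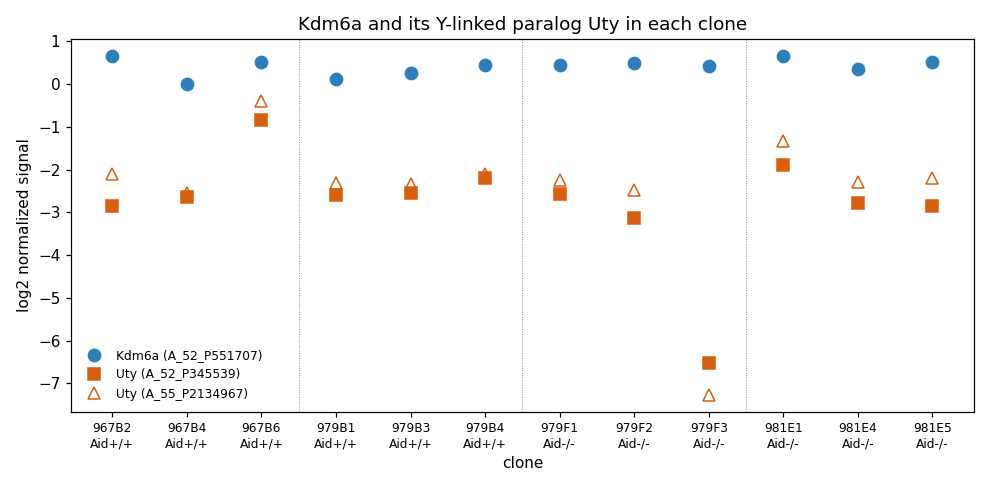
Log2 normalized signal (vertical axis) of the Kdm6a probe (circles) and the 2 Uty probes (squares and triangles) in each of the 12 clones (horizontal axis), with dotted lines between clone series. Both Uty probes fall to -6.53 and -7.26 in 979F3, where Kdm6a is at 0.42.

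No gene of the PRC2 core passed the test between genotypes. Ezh2, its catalytic subunit, was the least variable probe, with an SD over the 12 clones of 0.12, and ranged from 3.65 to 3.90 in Aid+/+ and from 3.54 to 3.87 in Aid-/- clones (log2 fold change -0.10, SE 0.09, adjusted p = 0.697). Eed was 5.97 to 6.42 (median 6.23) in Aid+/+ clones and 5.98 to 6.07 in Aid-/- clones. All Aid-/- clones lay in the lower part of the Aid+/+ range, where 979B1 also lay, and the log2 fold change was -0.19 (SE 0.08, adjusted p = 0.364). Suz12 had a genotype log2 fold change of 0.04 (SE 0.16, adjusted p = 0.996), with clones from 3.74 to 4.50. With slide as a fixed block it was 0.50 (adjusted p = 0.0382), which is the difference of series E and 979B alone.

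Suz12 differed between clone series in the F-test of all 12 clones. When 1 clone was left out, this call was kept only without 967B4. Suz12 read 4.50, 4.43 and 4.30 in 981E1, 981E4 and 981E5 and 4.21, 4.39 and 4.17 in 967B2, 967B4 and 967B6. It read 3.92, 3.88 and 3.93 in 979B1, 979B3 and 979B4 and 3.97, 3.78 and 3.74 in 979F1, 979F2 and 979F3. Every clone of series E and 967B was above every clone of 979B and 979F, so that 1 series of each genotype was high and 1 was low. The share of all probes whose series separate without overlap was not counted, for Suz12 or for the enzymes below. The low series are the ones of experiment 979, so the split in Suz12 also follows the experiment, and experiment and series cannot be told apart here. The series means were 4.41 ± 0.10 (E), 4.26 ± 0.11 (967B), 3.91 ± 0.02 (979B) and 3.83 ± 0.13 (979F; SD, n = 3 each). In the F-test over the 4 series Suz12 was the 1 of 12 probes that passed (limma, adjusted p = 0.0387), beside 4.16% of all probes, and Ehmt1, Ehmt2 and Setdb1 had an unadjusted p under 0.05 as well, as did 21.9% of all probes. When only the 28392 probes well above background on all arrays were tested, 4574 passed, 3 of them enzyme probes. Of those 28392 probes, 10468 had an unadjusted p under 0.05. Series accounted for 89.8% of the variance of Suz12 over the clones and 96.3% of that of Ehmt2. The median was 51.2% over the 12 probes and 49.9% over the 28392 probes well above background on all arrays.

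**Figure D3:**
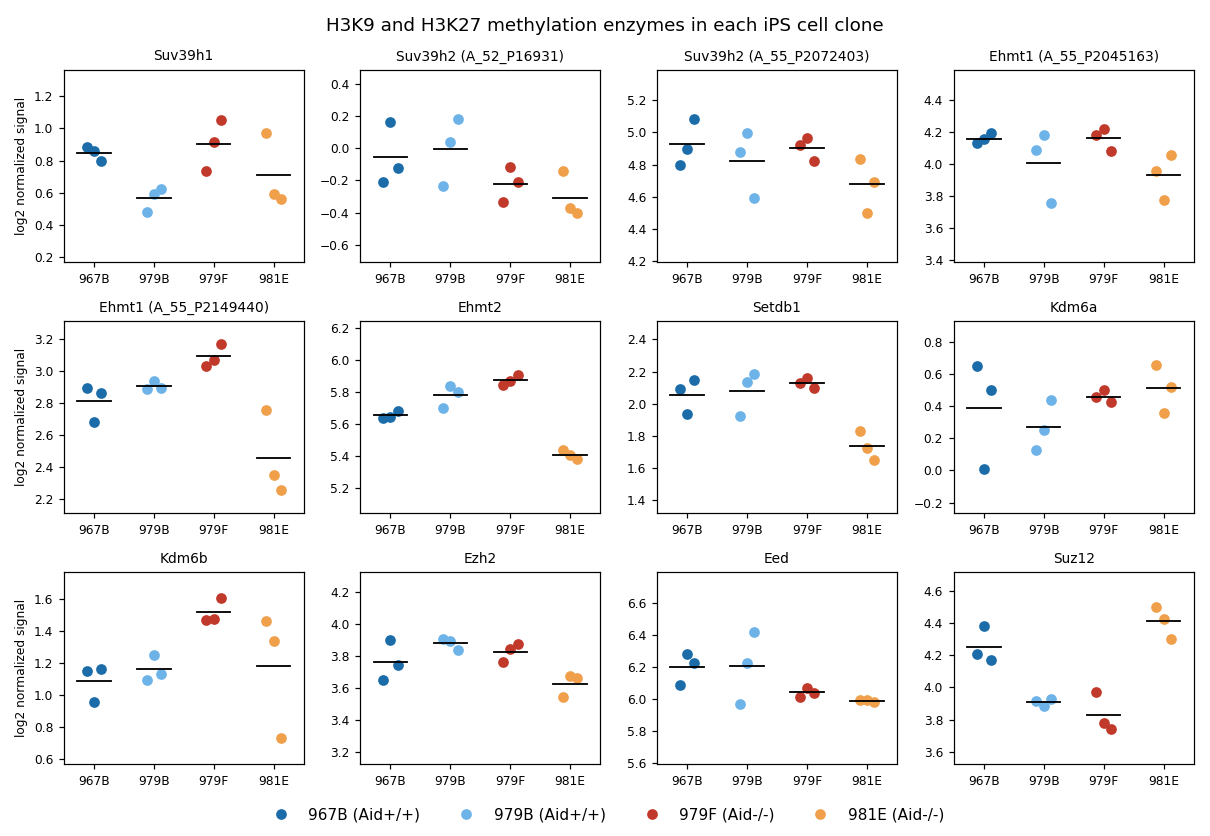
Log2 normalized signal (vertical axis, panels of equal height) of each probe in the 3 clones of each clone series (horizontal axis, points) with the series mean (line). Suz12 is high in 967B and series E and low in 979B and 979F, and Ehmt2 and Setdb1 are lowest in series E (981E1, 981E4 and 981E5).

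In the fit of all 12 clones, the 2 Aid-/- series differed from each other in 3 enzymes. Between series E and 979F, Suz12 was higher in series E by 0.58 on the log2 scale (SE 0.11, adjusted p = 0.0291). Ehmt2 was lower, at -0.47 (SE 0.09, adjusted p = 0.0302), and so was the Ehmt1 probe A_55_P2149440, at -0.63 (SE 0.14, adjusted p = 0.0416). These were 3 of 12 probes, beside 3.02% of all probes, and 4 had an unadjusted p under 0.05, as did 18.4% of all probes. Many of all probes were dim, while all 12 enzyme probes were detected. When only the 28392 probes well above background on all arrays were tested, 3303 passed and 8363 had an unadjusted p under 0.05. The summed fibroblast signal was 21.4 to 30.7 in 979F and 12.2 to 24.6 in series E. Its part in these differences was not tested, and the slide and the series cannot be told apart here.

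Ehmt2 was tightly grouped within series. It read 5.44, 5.41 and 5.38 in 981E1, 981E4 and 981E5 and 5.85, 5.87 and 5.91 in 979F1, 979F2 and 979F3. The Aid+/+ clones lay between them, at 5.64, 5.65 and 5.68 in 967B2, 967B4 and 967B6 and at 5.70, 5.84 and 5.80 in 979B1, 979B3 and 979B4. The 3 clones of series E were below all other clones, and those of 979F were above all others, with 979B3 just below them. Its partner Ehmt1 read 2.75, 2.35 and 2.26 in 981E1, 981E4 and 981E5 at probe A_55_P2149440, against 3.03 to 3.16 in 979F, 2.89 to 2.93 in 979B and 2.68 to 2.89 in 967B. Here 981E4 and 981E5 stood below all other clones and 981E1 did not. The other Ehmt1 probe, A_55_P2045163, was -0.23 for series E against 979F (adjusted p = 0.413), so the 2 probes of this gene, which carry the same accession and correlated with r = 0.43 over the 12 clones, did not both pass.

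Setdb1 had the same order of series as Ehmt2 without passing the test. It read 1.83, 1.73 and 1.65 in 981E1, 981E4 and 981E5, all below the lowest of the other 9 clones (1.92, in 979B1). For series E against 979F the difference was -0.39 (SE 0.11, adjusted p = 0.0965). It passed under quantile normalization and when only probes well above background on all arrays were tested. Over the 12 clones Setdb1 and Ehmt2 correlated with r = 0.89 and Suz12 and Ehmt2 with r = -0.90. These coefficients describe 12 clones that fall into 4 series, with both genes read from the same array at each point, and no test was made of them.

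On slide 3, which held series E and 979B, the arrays of the genotypes can be compared within a slide. Suz12 was higher in series E by 0.50 (SE 0.11, adjusted p = 0.0382), 1 of 12 probes, beside 4.13% of all probes. This comparison shares the series E clones with that against 979F. Ehmt2 was at -0.37 (SE 0.09, adjusted p = 0.0542), the Ehmt1 probe A_55_P2149440 at -0.45 (adjusted p = 0.107), Setdb1 at -0.34 (adjusted p = 0.132) and Ezh2 at -0.25 (adjusted p = 0.227), and these 5 probes had an unadjusted p under 0.05, as did 18.2% of all probes. When only the 28392 probes well above background on all arrays were tested, 3840 passed and 8479 had an unadjusted p under 0.05. With slide as a fixed block the genotype comparison is this same comparison, so its call of Suz12 (adjusted p = 0.0382) is not a second result. In a fit of the arrays of slide 3 alone, 0 of 12 probes passed.

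**Figure D4:**
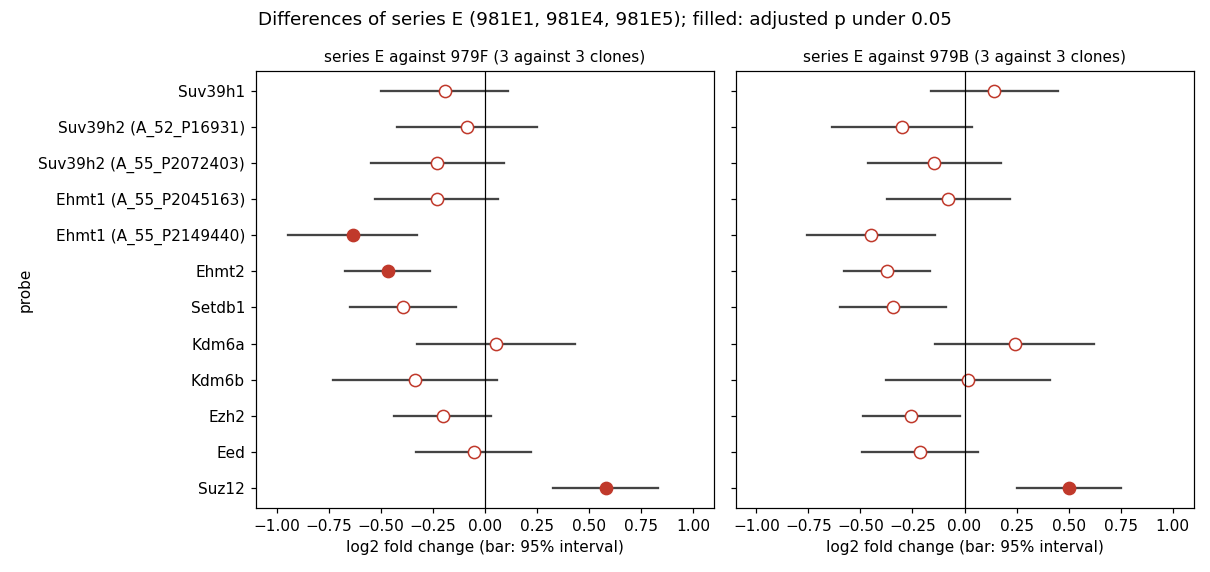
Log2 fold change (horizontal axis) of series E against 979F (left, Aid-/- in both) and against 979B (right, same slide) for each probe, with 95% intervals (bars). Filled points have a limma adjusted p under 0.05, which are Suz12, Ehmt2 and 1 Ehmt1 probe on the left and Suz12 on the right.

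The other pairs of series gave no call among the enzymes. For 979F against 979B it was 0 of 12 beside 0.614% of all probes, with Suv39h1 at an unadjusted p under 0.05 (14.6% of all probes). For series E against 967B it was 0 beside 0.196%, with Ehmt1, Ehmt2 and Setdb1 at an unadjusted p under 0.05 (12.8% of all probes). For 979F against 967B it was 0 beside 1.46%, with Suz12 at -0.42 (adjusted p = 0.0982), and with Ehmt2 and Kdm6b also at an unadjusted p under 0.05 (16.3% of all probes). Among the 28392 probes well above background on all arrays, tested alone, more had such a p. They were 5986 for series E against 967B and 7121 for 979F against 967B. For the 2 Aid+/+ series, 979B against 967B, it was 0 beside 0.711%, and Suz12 (-0.35, adjusted p = 0.269) had an unadjusted p under 0.05, as did 10.5% of all probes. The difference of 979F and 979B minus that of series E and 967B was called for 0 of 12 probes, beside 0.106%, with an adjusted p of 0.397 or higher and 4 probes at an unadjusted p under 0.05 (9.85% of all probes). Its values were above 0 for 11 of 12 probes, with a median of 0.30, against -0.02 over all probes. The median size was 0.30 over the 12 probes and 0.29 over all probes. The share of all probes above 0 was not counted.

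Each of these calls was lost in some of the fits that left out 1 clone. Over all probes the calls for series E against 979F also moved, between 263 without 979F3 and 3397 without 967B4. Leaving out 1 clone at a time moved the count of enzyme probes for series E against 979F between 0 and 3. It was 0 without 979F1, 979F2, 979F3, 979B3, 981E4 or 981E5, and 1 (Suz12) without 967B6 or 979B4, while the log2 differences stayed between 0.53 and 0.65 for Suz12, between -0.48 and -0.45 for Ehmt2 and between -0.78 and -0.54 for Ehmt1. Without 979F3 they were 0.53 (adjusted p = 0.116), -0.45 (adjusted p = 0.117) and -0.60 (adjusted p = 0.144). Without 981E4, whose relation to 981E1 is unsettled, they were 0.57, -0.47 and -0.58 (adjusted p = 0.0691, 0.0689 and 0.104). The single calls of Suz12 in the F-test and against 979B were kept only without 967B4. Without 981E1 the 1 call in both was the Ehmt1 probe A_55_P2149440 instead, and without any other clone there was none. The adjusted p of Suz12 against 979B ranged from 0.0219 to 0.125 over these fits.

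In the order of the 4 series by level, series E was the lowest series for 8 of 12 probes and the highest for 2, Suz12 and Kdm6a. Series 979F was the highest for 6. The share of all probes with such orders was not counted, and the 12 probes were read from the same arrays. These counts are therefore given only as a description. No pair of neighbouring series in any of the 12 orders passed an adjusted p under 0.05. The largest step between neighbours was 0.36, between 967B and series E at the Ehmt1 probe A_55_P2149440 (adjusted p = 0.315). Most of the enzyme probes varied less over the clones than the median detected probe. Their SD over 12 clones was 0.12 to 0.27 with a median of 0.19. Of the 12 probes, 10 were below the median of 0.26 over the 28392 probes well above background on all arrays. Probes of like signal were not compared, so the part of brightness in this was not tested.

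The other genes of both pathways were read from a list of 26 on the H3K9 side and 28 on the H3K27 side, of which 25 and 28 were measured by 79 probes, Setdb2 being the one without a matched probe. Between genotypes 0 of 79 passed (limma, lowest adjusted p = 0.0931), and 19 had an unadjusted p under 0.05, against 13.6% of all probes. Of the 28392 probes well above background on all arrays, tested alone, 6078 had such a p. The lowest adjusted p was that of Kdm4c, an H3K9 demethylase, at -0.56 (SE 0.12). Trim28, the Setdb1 partner, was at 0.10, Jarid2, a PRC2 accessory protein, at 0.15, and the 3 probes of Ezh1, the paralog of Ezh2, at -0.52, -0.45 and -0.45. Of the HP1 proteins that bind methylated H3K9, Cbx1 was at 0.05, Cbx3 at -0.28 and -0.25, and Cbx5 at -0.17 and -0.27.

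Over the clone series 6 of 79 probes passed the F-test, beside 4.16% of all probes and 4574 of the 28392 probes well above background on all arrays, tested alone. They were both probes of Pcgf5 and 1 of 3 of Cbx6, subunits of Polycomb repressive complex 1 (PRC1), 1 of 2 probes of Tasor of the HUSH silencing complex, and the probes of Kdm4c and Prdm16. Prdm16 was well above background on 9 of 12 arrays and was named after its values were seen. For series E against 979F, 3 probes were higher and 3 lower of 79 that were tested, beside 3.02% of all probes. Pcgf5 was higher in series E by 0.89 and 0.88 (adjusted p = 0.0166 and 0.0176) and Prdm16 by 1.64 (adjusted p = 0.0260). Cbx6 was at -0.69 and -0.70 (adjusted p = 0.0245 and 0.0337) and Tasor at -0.69 (adjusted p = 0.0282). The remaining Cbx6 probe, at -0.38 (adjusted p = 0.111), and the other Tasor probe, at -0.43 (adjusted p = 0.0915), did not pass. For series E against 979B, beside 4.13% of all probes, again 3 were higher, the 2 Aebp2 probes (0.83 and 0.96) and Prdm16 (1.39), and 3 lower, Tasor (-0.76), Kdm4c (-0.77) and Cbx3 (-0.43). There the other Tasor probe, at -0.44 (adjusted p = 0.0798), and the other Cbx3 probe, at -0.38 (adjusted p = 0.128), did not pass. Aebp2, a PRC2 accessory subunit, did not pass against 979F (0.46 at both probes, adjusted p = 0.250 and 0.259). Ring1, a PRC1 ubiquitin ligase, was higher in 979F than in 979B (0.58, adjusted p = 0.0469), and Cbx6 higher in 979F than in 967B (0.66, adjusted p = 0.0398). Each was the 1 call among the 79 in its comparison, beside 0.614% and 1.46% of all probes. The other Cbx6 probes, at 0.62 and 0.40 for 979F against 967B (adjusted p = 0.0681 and 0.122), did not pass.

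**Figure D5:**
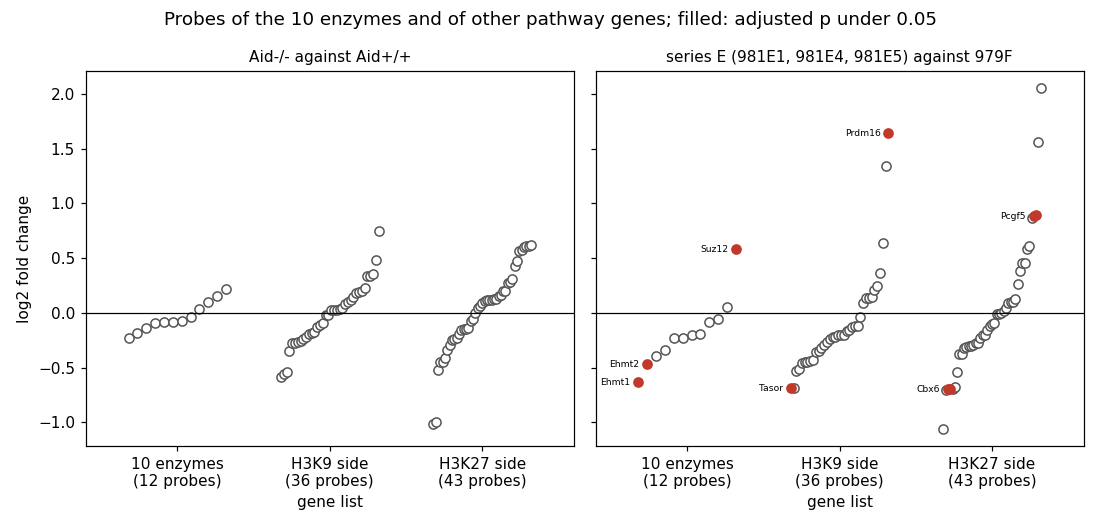
Log2 fold changes (vertical axis) of the probes of the 10 enzymes and of the other genes of the H3K9 and H3K27 pathways, ordered by value within each list (horizontal axis), for the genotypes (left) and for series E against 979F (right). Filled points have a limma adjusted p under 0.05, 0 on the left and 9 on the right.

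The genes whose levels followed each enzyme most closely over the 12 clones were taken from 17608 probes of other genes well above background on all arrays. For Suv39h1 they were Tmem259 (Pearson r = 0.93), Sft2d2 (0.91) and Mrps7 (0.91), and for Kdm6a Dnajb11 (0.95), Srf (0.94) and Asb6 (0.94). Suz12 was followed by Ube2l6 (0.97), Ehmt2 by Bcl2l12 (0.97), Setdb1 by Ppil1 (0.98), the Ehmt1 probe A_55_P2045163, not the one that was called, by Blcap (0.97) and the Suv39h2 probe A_55_P2072403 by Kcna4 (0.97). Kdm6b was followed by Desi1 (0.98), Ezh2 by Fyco1 (0.95) and Eed by Eif2s1 (0.95). These are the highest of many coefficients over 12 clones of 4 series, and are given as a description.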

How the data were processed

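Total RNA of 12 iPS cell clones was labelled with Cy3 and hybridized to Agilent whole mouse genome arrays (1 colour). The authors' Feature Extraction software (10.7.3.1) gave the deposited intensity of each spot, corrected for background but not scaled between arrays. A table of log2 values that the authors scaled to the 75th percentile in GeneSpring GX was deposited too and used as an alternative (median absolute difference of 0.00678 or less per array from the values used here).

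After removal of controls and outlier spots, log2 intensities were averaged per probe and scaled by subtracting each array's 75th percentile. All 55681 probes were fitted with limma 3.58.1 (R 4.3.3) as genotype groups without covariates, or with a mean per clone series. P-values were adjusted over all probes by Benjamini and Hochberg, and an adjusted p under 0.05 was a call. The prior degrees of freedom of the genotype fit were 2.04. Of 28685 probes with an accession of RefSeq form, 27235 were matched to symbols in the RefSeq table of GRCm38.p6. The array design names mm9, so no positions of probes are given. In simulated data (39232 probes, 100 changed at each size) the genotype fit recovered 71 probes changed by 1 on the log2 scale and 86 changed by 2. For 979F against 979B these were 47 and 75, and for the F-test over series 46 and 71. The simulated clones varied only as clones within a series do, without differences between series. The genotype fit of the real data counts such differences as error, so its recovery there may be lower than simulated. Python 3.11.15 was used for the summaries.

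Alternatives were normexp background correction (offset 50, on the median spot intensity, since the scanner tables hold no mean intensity, a choice made after seeing the files), quantile normalization, the percentile of detected probes, the deposited log2 values, filters on dim probes, a variance trend with robust fitting, the methods' t-test, slide and series as blocks, and leaving out clones. Leaving out clone pairs was added for the series comparisons after seeing the data. The enzymes and gene lists were chosen with earlier results of these data known. Named genes were all probes of the 10 enzymes, the pathway probes called between genotypes, the 10 detected pathway probes with the lowest adjusted p over the series, Uty, Ezh1, Jarid2, Trim28 and the HP1 genes, and the closest genes by correlation. The check of the targeted gene is not reported here. Precision rests on the number of arrays.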

Additional observations from a re-analysis of the deposited data

Results flagged for a closer look

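In 24 groups of 6 clones (12 probes in 2 genotypes) 3 held a clone far from the others by Dixon's test at 95%. Chance gives about 1 in 20 only for independent groups of like clones. Here each group held 2 clone series, and the 12 probes were read from the same arrays. The share of all detected probes with such a clone was not counted. Whether 3 of 24 is an excess was therefore not tested, and the 3 are given only as a description. The Ehmt1 probe A_55_P2045163 was 3.75 in 979B4, below 4.09 to 4.19 in the other Aid+/+ clones. The Ehmt1 probe A_55_P2149440 was 2.68 in 967B4, below 2.86 to 2.93 in the other Aid+/+ clones, so the outlying clone was not the same at the 2 probes of this gene. Kdm6b was 0.73 in 981E5, below 1.34 to 1.60 in the other Aid-/- clones.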

How the results depend on the processing

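No paired analysis was possible because no label pairs single clones across the genotypes. The number 979 links series 979F and 979B as 1 experiment, and the genotype count in that experiment alone was 0. The genotype count stayed at 0 of 12 under all alternatives but slide as a fixed block, which gave 1 (Suz12, 0.50). That fit compares only series E with 979B, so its call is the one already given for that pair. The counts for 979F against 979B, series E against 967B, 979B against 967B and the difference of the genotype effects stayed at 0 under each alternative run. The F-test over series gave 3 under normexp, with probes well above background on all arrays and with a variance trend, 2 under quantile normalization and with probes well above background on at least 1 array, and 0 without 979F3 and 967B6, against 1. The calls over all 55681 probes moved too, from 2318 to 4035 under normexp and 343 without 979F3 and 967B6. With probes detected on all arrays they were 4574 of 28392. For series E against 979B, against 1, it was 3 under normexp and with probes detected on all arrays, 2 under quantile normalization, with probes detected on at least 1 array and with a variance trend, and 0 without 979F3 and 967B6. For 979F against 967B, against 0, it was 1 under normexp, quantile normalization, the filter on all arrays and the variance trend. For series E against 979F, against 3, it was 4 under quantile normalization and with probes detected on all arrays, where Setdb1 passed too, 2 without 967B4 and 981E5, and 0 without 979F3 and 967B6. Over all probes the calls of this pair went from 1684 to 2425 under quantile normalization and 165 without 979F3 and 967B6. Leaving out 1 clone gave 0 to 2 for the F-test and for series E against 979B and 0 to 3 for series E against 979F. For the F-test and for series E against 979B, Suz12 passed only without 967B4, and without 981E1 the 1 call was Ehmt1. The 4 differences that passed had 84 values under the alternatives, of which 43 kept the call and 41 lost it. The 324 genotype values of single probes kept their side of the threshold but for Suz12 with slide as a fixed block, and 15 took the opposite sign. The differences that passed kept their direction under each alternative run, with Suz12 at 0.46 to 0.60 against 979B and, against 979F, Suz12 at 0.53 to 0.65, Ehmt2 at -0.48 to -0.42 and Ehmt1 at -0.78 to -0.54. All 12 probes were well above background on every array. Dim probes of other genes still entered the adjustment of the p-values, and some of the counts above rose when those were left out.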
